A study of Mus musculus with 6 samples.

Results

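The 8 genes described here encode the hypoxia-inducible factor (HIF) subunits and the hydroxylases and ligase subunit that couple them to oxygen: Hif1a, Epas1, Arnt, Egln1, Egln2, Egln3, Vhl and Hif1an. They were chosen by gene symbol, and each had a row of its own among the 16281 genes of the count table. RNA sequencing was performed on OT1 CD8+ T cells, which come from C57BL/6 mice carrying the transgenic T-cell receptor Tg(TcraTcrb)1100Mjb and recognize an ovalbumin peptide. The labels give spleen as the tissue, the protocol also names lymph nodes, and the study isolated the cells from 3 separate mice, whose age the sources used here do not give. All samples were activated in culture for 48 h with 2 μg/ml anti-CD3, 2 μg/ml anti-CD28 and, by the study's methods, 20 ng/ml IL-2. They were then expanded for 3 days with 20 ng/ml IL-2. During activation and expansion the 3 GSK samples received 0.5 μM GSK2879552, an irreversible inhibitor of the histone demethylase LSD1, while the 3 Veh samples received vehicle. By the labels the groups shared strain, genotype and culture and differed in the inhibitor, while it is not given which mouse each sample came from, and the comparison asks which RNAs of the oxygen-sensing pathway differed with it. In these bulk samples, fewer cells of a type and less RNA per cell cannot be told apart.

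HIF is a transcription factor made of an alpha subunit, whose protein is controlled by oxygen, and a beta subunit that is always present. With oxygen, prolyl hydroxylases of the EGLN family mark the alpha subunit, VHL then binds it as part of a ubiquitin ligase, and the proteasome destroys it, while the asparaginyl hydroxylase HIF1AN keeps the remaining protein from binding its coactivators. In CD8+ T cells, antigen receptor and cytokine signals also raise the alpha subunits, and HIF activity is known for driving glycolysis and effector molecules. Most of this control acts on protein and enzyme activity, which RNA counts do not measure.

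All 8 genes passed the filter on low counts and were among 11698 genes tested by edgeR's quasi-likelihood test, with p-values adjusted over all of them by the Benjamini-Hochberg method. At an adjusted p under 0.05, 1 of the 8 genes was higher in GSK (Hif1a), 4 were lower (Epas1, Egln1, Egln3 and Vhl), and 3 did not pass (Arnt, Egln2 and Hif1an). Over all genes tested, 16.6% were called higher and 15.5% lower. Egln3 and Epas1 were also lower by more than 1.5-fold, and 4.09% of genes tested passed both the adjusted p and that fold in the same direction. The 3 values of one group lay wholly above or below those of the other for 7 of the 8 genes, Egln2 being the exception, and the same held for 46.7% of genes tested. The median log2 fold change was -0.30 over the 8 genes and -0.0039 over all genes tested. Levels below are CPM, the counts of a gene for every 1000000 counts of the library, on library totals scaled by the trimmed mean of M-values (TMM), and every change is GSK against Veh.

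**Figure D1:**
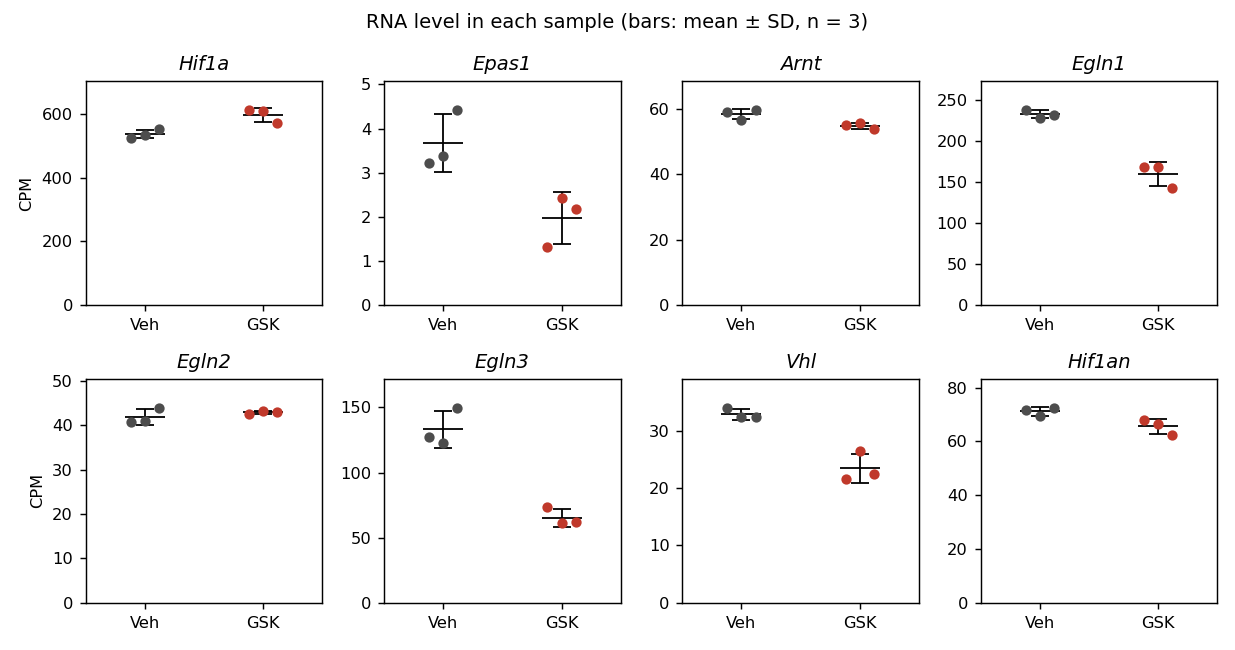
RNA level of each of the 8 genes in CPM (vertical axes, each starting at 0) in the 3 Veh samples (gray) and the 3 GSK samples (red), with bars for the mean and SD. Egln1, Egln3 and Vhl lay lower in every GSK sample than in every Veh sample, Hif1a lay slightly higher, and the values of Egln2 overlapped.

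The libraries held between 18288447 and 19846720 counts, so sampling error was small for all of these genes but Epas1, which had 25 to 84 counts in a sample. No pair of samples within a group agreed within sampling noise, with chi-square per degree of freedom between 4.07 and 9.38. Markers of CD8 T cells summed to 2969 to 3084 CPM in Veh and 2857 to 3012 CPM in GSK, with 1 of 7 higher and 3 lower at an adjusted p under 0.05. Those lower were Cd3g, from 423 to 325 CPM, Cd3e, from 284 to 242 CPM, and Cd3d, from 350 to 312 CPM, that higher was Lck, from 840.02 to 916 CPM, and Cd8a at 516 and 541 CPM did not pass. Trac, Trbc1 and Trbc2 were not analysed here. Markers of CD4 T and NK cells summed to 168 to 198 CPM in Veh and 226 to 229 CPM in GSK, with 1 of 5 tested higher, the receptor gene Klrk1 that activated CD8 T cells also express. B cell markers summed to 6.31 to 8.21 CPM in Veh and 7.93 to 9.67 CPM in GSK, with 1 of 2 tested higher, Cd22, which rose from 0.409 ± 0.186 to 2.60 ± 0.279 CPM (log2 fold change 2.65, adjusted p = 1.5e-04, edgeR). Cd79b went the other way, from 6.51 ± 1.02 to 4.90 ± 0.238 CPM without overlap, and did not pass (adjusted p = 0.070, edgeR). Erythroid markers summed to at most 0.429 CPM for Veh and 0.574 CPM for GSK samples. The part of such cells in the results was not tested. Kdm1a, which encodes LSD1, went from 92.8 ± 5.45 to 87.1 ± 3.54 CPM (SD, n = 3; log2 fold change -0.09, adjusted p = 0.22, edgeR). The inhibitor acts on the protein, so this RNA does not check the labels.

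Of the subunits of the factor itself, Hif1a rose by a small amount, Epas1 fell from an already low level, and Arnt did not pass the test. Hif1a (chr12:73901324-73947554, + strand, GRCm38) encodes HIF-1α, the main oxygen-regulated subunit of T cells. Its level was 525, 535 and 551 CPM in the Veh samples and 611, 608 and 572 CPM in the GSK samples. The groups did not overlap, but the lowest GSK value was near the highest Veh value. The mean rose from 537 ± 13.6 to 597 ± 21.7 CPM (SD, n = 3), a fold of 1.11. The log2 fold change was 0.15 (SE 0.039, 95% interval 0.069 to 0.24, adjusted p = 0.0095, edgeR). Without GSK replicate 1, which had the highest value, the log2 fold change was 0.13 and the call was lost (adjusted p = 0.064, edgeR). Exons of Hif1a overlap those of the antisense gene Gm15283 and of Gm49321 on the same strand, neither analysed here, and the strand setting of the counting is not given in the sources used here.

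Epas1 (chr17:86753864-86833410, + strand) encodes HIF-2α, the second oxygen-regulated subunit, which is best known from endothelium. It was counted 59, 63 and 84 times in the Veh samples and 25, 48 and 42 times in the GSK samples. These counts correspond to 3.21, 3.38 and 4.41 CPM in Veh and 1.31, 2.43 and 2.19 CPM in GSK. Every GSK sample was below every Veh sample, and the relative spread was the widest of the 8 genes, with an SD of 17.8% of the mean in Veh and 29.7% in GSK. The log2 fold change was -0.89 (SE 0.26, 95% interval -1.45 to -0.33, adjusted p = 0.019, edgeR). The call rested on single libraries, since the adjusted p was 0.087 without Veh replicate 3 and 0.077 without GSK replicate 1, with log2 fold changes of -0.73 and -0.67. Markers of endothelial and stromal cells, of which 5 were tested and 0 called at an adjusted p under 0.05 by edgeR (2 lower at an unadjusted p, and 1 lower by DESeq2, Pecam1), summed to 82.9 to 90.5 CPM in Veh and 68.1 to 80.6 CPM in GSK. Most of that sum was Pecam1, which T cells also express (74.0 ± 4.50 to 63.4 ± 8.01 CPM). No analysed marker of the list was at 0 in all 6 samples, and Tek was not analysed here. The endothelial cadherin gene Cdh5 went from 0.124 ± 0.0606 CPM to 0 in all 3 GSK samples. A count of 0 is near the level of Cdh5 in Veh of 1 to 3 counts a sample. Of the same list, Egfl7 went from 7.70 ± 0.743 to 7.52 ± 1.44 CPM with overlap (adjusted p = 0.88, edgeR). Kdr, which was not tested, went from 0.340 ± 0.115 to 0.452 ± 0.309 CPM, also with overlap. Tie1, likewise not tested, fell from 0.161 ± 0.142 to 0.0174 ± 0.0301 CPM without overlap. Myeloid markers summed to 13.7 to 20.2 CPM in Veh and 11.3 to 15.0 CPM in GSK, and 1 of 4 tested was lower, Itgax, which fell from 3.39 ± 0.972 to 1.31 ± 0.144 CPM. The most abundant myeloid marker, Cd68, went from 8.87 ± 1.84 to 9.33 ± 0.995 CPM and did not pass (adjusted p = 0.74, edgeR). Itgam and Lyz2 had lower means in GSK and did not pass either. The part of such cells in the Epas1 result was not tested.

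Arnt (chr3:95434367-95497240, + strand) encodes HIF-1β, the partner with which either alpha subunit binds DNA. It had 58.9, 56.5 and 59.5 CPM in the Veh samples and 54.9, 55.5 and 53.8 CPM in the GSK samples. The groups did not overlap, but the log2 fold change of -0.09 (SE 0.053) had a 95% interval from -0.20 to 0.024 and did not pass (adjusted p = 0.21, edgeR). A pseudogene inside Arnt, Gm42672, and a transcript model inside Epas1 share no exon with them.

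The prolyl hydroxylases parted into a pair that fell, Egln1 and Egln3, and Egln2, for which no change was detected. Egln1 (chr8:124908587-124949254, - strand) encodes PHD2, the main enzyme that sets HIF-1α stability with oxygen present, and its RNA is itself known to be induced by HIF. Its level was 238, 229 and 233 CPM in the Veh samples and 169, 168 and 143 CPM in the GSK samples. Veh values lay within a few percent of each other, and even the highest GSK value was far below them. The mean fell from 233 ± 4.58 to 160 ± 14.6 CPM (SD, n = 3), to 0.688 of the Veh level. The log2 fold change was -0.54 (SE 0.059, 95% interval -0.67 to -0.41, adjusted p = 5.3e-05, edgeR), the smallest p of the 8 genes in this fit. Egln3 had the smaller adjusted p in DESeq2, with a replicate block and in the quasi-likelihood fit without robust estimation (2.4e-05, against 1.4e-04 for Egln1, edgeR). In RefSeq the noncoding gene Gm46060, not analysed here, overlaps the Egln1 region.

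Egln3 (chr12:54178981-54203874, - strand) encodes PHD3, the EGLN enzyme whose RNA responds most strongly to low oxygen in many cell types. It had 128, 123 and 150 CPM in the Veh samples and 73.4, 60.9 and 62.0 CPM in the GSK samples. The highest GSK sample was well under the lowest Veh sample. The mean went from 133 ± 14.3 to 65.5 ± 6.90 CPM (SD, n = 3), a change of -50.9%. The log2 fold change was -1.03 (SE 0.092, 95% interval -1.24 to -0.82, adjusted p = 8.9e-05, edgeR), and 1.77% of genes tested had a lower value. It was the lowest of the 8 genes in this fit, but the interval of Epas1 covers it, and without GSK replicate 2 Epas1 was at -1.07 and Egln3 at -0.98.

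Egln2 (chr7:27158658-27166802, - strand) encodes PHD1, a mainly nuclear member of the family. Its level was 40.6, 40.9 and 43.9 CPM in the Veh samples and 42.6, 43.3 and 43.0 CPM in the GSK samples, so the groups overlapped. The log2 fold change was 0.039 (SE 0.060, adjusted p = 0.66, edgeR), and its 95% interval from -0.091 to 0.17 did not reach the changes of Egln1 or Egln3. Exons of Egln2 overlap those of Cyp2t4 on the opposite strand, which was not analysed here.

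Of the next steps of the pathway, Vhl fell and Hif1an did not pass the test. Vhl (chr6:113623994-113631634, + strand) encodes the substrate-binding subunit of the ligase that recognizes hydroxylated HIF-1α and HIF-2α. It had 33.9, 32.3 and 32.3 CPM in the Veh samples and 21.6, 26.4 and 22.4 CPM in the GSK samples, without overlap. The mean fell from 32.9 ± 0.944 to 23.5 ± 2.54 CPM (SD, n = 3), to 0.715 of the Veh level, with a log2 fold change of -0.48 (SE 0.083, 95% interval -0.66 to -0.31, adjusted p = 8.9e-04, edgeR). Hif1an (chr19:44562854-44576274, + strand) encodes FIH, the asparaginyl hydroxylase that blocks coactivator binding. Its level was 71.7, 69.4 and 72.4 CPM in the Veh samples and 67.8, 66.4 and 62.4 CPM in the GSK samples. The groups did not overlap, but the log2 fold change of -0.12 (SE 0.053, 95% interval -0.23 to -0.0045) did not pass (adjusted p = 0.10, edgeR). It passed with upper-quartile scaling, where the log2 fold change was -0.15 (adjusted p = 0.040, edgeR).

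**Figure D2:**
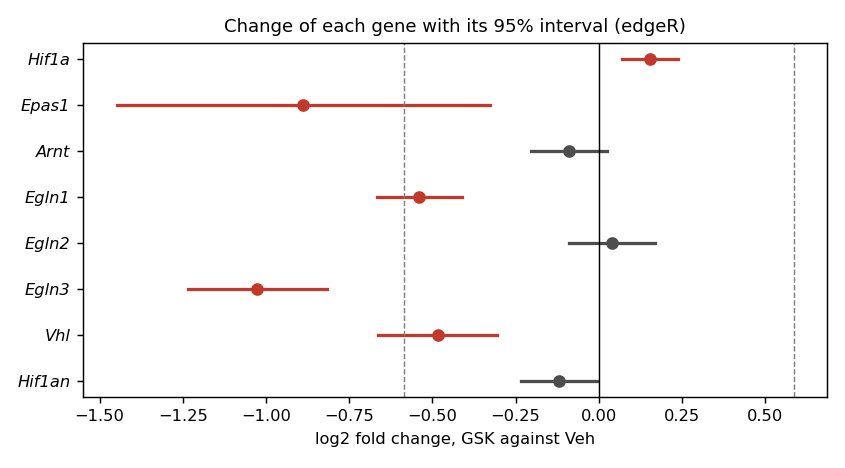
Log2 fold change of each of the 8 genes, GSK against Veh (horizontal axis), with its 95% interval from edgeR, in red where the adjusted p was under 0.05 and in gray where it was not. Dashed lines mark a change of 1.5-fold, which the point estimates of Egln3 and Epas1 exceeded, and the interval of Egln2 lay apart from those of Egln1 and Egln3.

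To ask whether paralogs changed by different amounts, the log2 ratio of their CPM was taken within each sample, where library size cancels. The 4 ratios were each lower in all 3 GSK samples than in any Veh sample. With 3 samples against 3, the exact two-sided permutation test cannot give a p below 0.1, and it gave 0.1 for each ratio, also after adjustment over the 4 pairs. Egln3 to Egln2 was 1.65, 1.58 and 1.77 in Veh and 0.78, 0.49 and 0.53 in GSK, a difference of -1.06 (SE 0.11). Egln1 to Egln2 was 2.55, 2.48 and 2.40 in Veh and 1.99, 1.96 and 1.74 in GSK, a difference of -0.58 (SE 0.089). These differences were close to the log2 fold changes of Egln3 and Egln1 themselves. Egln3 to Egln1 was -0.90, -0.90 and -0.64 in Veh and -1.20, -1.46 and -1.21 in GSK, a difference of -0.48 (SE 0.12). Epas1 to Hif1a was -7.31, -7.26 and -6.93 in Veh and -8.75, -7.91 and -7.96 in GSK, a difference of -1.04 (SE 0.30).

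**Figure D3:**
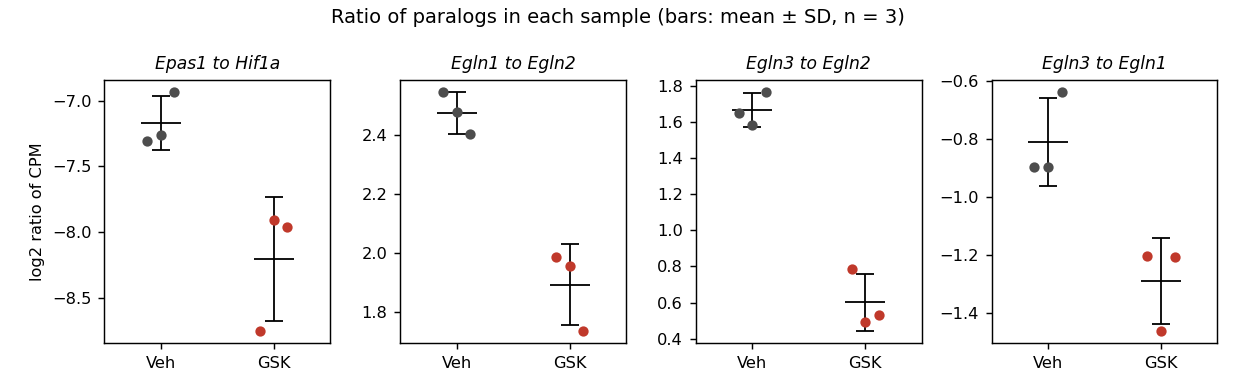
Log2 ratio of the CPM of paralog pairs (vertical axes, each with its own range and not starting at 0) in each Veh (gray) and GSK (red) sample, with bars for the mean and SD. For each of the 4 pairs every GSK sample lay below every Veh sample, with the widest spread for Epas1 to Hif1a in GSK.

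Levels of different genes were set side by side as CPM per kilobase of annotated exon, since longer transcripts collect more reads. In Veh the order was Hif1a at 98.6 ± 2.49, Egln1 at 64.8 ± 1.27, Egln3 at 50.1 ± 5.38, Egln2 at 19.0 ± 0.820, Arnt at 12.1 ± 0.327, Vhl at 11.8 ± 0.338, Hif1an at 11.5 ± 0.259 and Epas1 at 0.665 ± 0.118 (SD, n = 3). The sample ranges of Arnt and Vhl overlapped, as did those of Vhl and Hif1an, so these neighbors did not differ beyond their spread. In GSK, Hif1a stood at 110 ± 3.98, Egln1 at 44.6 ± 4.06, Egln3 at 24.6 ± 2.59, Egln2 at 19.5 ± 0.158, Arnt at 11.3 ± 0.179, Hif1an at 10.6 ± 0.459, Vhl at 8.41 ± 0.909 and Epas1 at 0.358 ± 0.107 on the same scale. The order thus differed only in that Vhl came after Hif1an, and no neighbors overlapped. HIF-1α RNA was the most abundant of the set in either group, and HIF-2α RNA was scarce. The summed level of the EGLN genes on this scale was 128 to 141 in Veh and 82.7 to 94.0 in GSK. Of that sum, Egln3 made up 35.9 to 39.9% in Veh and 25.6 to 29.3% in GSK. The share of Egln2 was 13.9 to 14.5% in Veh and 20.6 to 23.6% in GSK. The share of Egln1 overlapped between the groups, at 46.0 to 49.9% in Veh and 48.3 to 52.4% in GSK.

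HIF binds the core sequence ACGTG or GCGTG, and the promoters of the EGLN genes are shown because Egln1 and Egln3 were called and Egln2 was not. The sequences are from RefSeq (GRCm38.p6), run from 250 bases before to 50 bases after the start of the gene, and are written 5′ to 3′ on the strand of the gene. Capitals mark ACGTG or GCGTG, or its reverse complement where the match is on the other strand, and distances are to the leftmost base of a match. They lie at chr8:124949205-124949504 for Egln1, at chr12:54203825-54204124 for Egln3 and at chr7:27166753-27167052 for the first of 2 promoters of Egln2, all on the - strand.
Egln1: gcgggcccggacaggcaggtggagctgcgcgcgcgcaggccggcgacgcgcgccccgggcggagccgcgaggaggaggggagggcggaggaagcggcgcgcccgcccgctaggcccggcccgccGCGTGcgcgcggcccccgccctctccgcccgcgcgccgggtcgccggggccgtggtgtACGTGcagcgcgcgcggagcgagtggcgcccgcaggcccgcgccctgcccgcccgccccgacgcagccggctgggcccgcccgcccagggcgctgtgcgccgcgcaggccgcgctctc
Egln3: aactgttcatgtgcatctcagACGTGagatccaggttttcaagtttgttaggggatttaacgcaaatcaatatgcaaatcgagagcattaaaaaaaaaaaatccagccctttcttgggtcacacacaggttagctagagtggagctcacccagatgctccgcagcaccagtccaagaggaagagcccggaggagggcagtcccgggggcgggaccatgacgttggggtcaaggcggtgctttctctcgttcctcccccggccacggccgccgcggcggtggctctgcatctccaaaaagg
Egln2: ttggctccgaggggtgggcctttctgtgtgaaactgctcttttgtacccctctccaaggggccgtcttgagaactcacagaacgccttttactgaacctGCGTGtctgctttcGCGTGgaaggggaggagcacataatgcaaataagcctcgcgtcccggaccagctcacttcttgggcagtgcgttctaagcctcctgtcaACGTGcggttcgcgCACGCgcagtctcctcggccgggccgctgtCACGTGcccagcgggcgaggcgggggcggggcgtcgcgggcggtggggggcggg

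The Egln1 window was 86.0% G and C and held 2 matches, GCGTG at 126 bases and ACGTG at 68 bases before the start. Egln3 held 1 match, ACGTG at 229 bases before the start. The first promoter of Egln2, whose RNA did not pass the test, held 6, and those at 4 and 3 bases before the start are both strands of 1 palindrome, CACGTG. Its second promoter, at chr7:27165679-27165978, held 1 match, GCGTG at 116 bases before the start. Promoters were found for 7 of the 8 genes, all but Epas1. Hif1a, whose window at chr12:73907617-73907916 lies around a start inside the gene span given above and not at its first base, held 3 matches, of which 2 are both strands of 1 CACGTG, and Arnt held 1. Neither Vhl nor Hif1an held one in this window. A match was common, since 61.7% of 12025 promoters of the genes tested held ACGTG or GCGTG on either strand, with a median of 1 match, and 25.6% held ACGTG. These letters describe the windows only, and no binding data were used here.

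The other genes of the pathway were read from lists of known members, and each list's counts stand beside the 16.6% of all genes tested that were called higher and the 15.5% called lower. Counts below such as 1 of 6 lower, 3 of 19 higher and 1 of 8 higher are near these shares. Of 10 other HIF family subunits and dimer partners in the table, 6 were tested, with 0 higher (also at an unadjusted p under 0.05 and by DESeq2) and 1 lower by edgeR and a median log2 fold change of 0.083. The one that was lower was Arntl2, a partner of the circadian factor CLOCK, which fell from 0.962 ± 0.264 to 0.378 ± 0.0712 CPM (log2 fold change -1.33, adjusted p = 0.025, edgeR). At this low level it had no adjusted p in DESeq2 and was not tested with a filter of 1 CPM, and its call was lost without any one of Veh replicates 2 and 3 and GSK replicates 1 and 3.

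Of 19 tested genes for the VHL ligase and for control of HIF degradation in either direction, 3 were higher and 16 did not pass by edgeR. The count lower was 0, also at an unadjusted p under 0.05 and by DESeq2, and the median log2 fold change was 0.032. Of the subunits that form 1 complex with VHL, Cul2 and Eloc rose, while Elob (log2 fold change 0.047, adjusted p = 0.51, edgeR) and Rbx1 (log2 fold change 0.044, adjusted p = 0.64, edgeR) did not pass. Cul2, the scaffold of the ligase, rose from 68.0 ± 2.71 to 82.3 ± 2.90 CPM (log2 fold change 0.28, adjusted p = 0.0018, edgeR). Eloc, which links VHL to the scaffold, rose from 70.2 ± 4.56 to 82.5 ± 4.14 CPM (log2 fold change 0.23, adjusted p = 0.0099, edgeR). Siah1b, of a ubiquitin ligase family that targets prolyl hydroxylases, was the third (log2 fold change 0.35, adjusted p = 0.049, edgeR), and its reads may be shared with the close copy Siah1a. Without Veh replicate 1 the count higher was 1, and it was 2 with upper-quartile scaling, DESeq2 or a replicate block. It was also 2 without any one of Veh replicate 3 and GSK replicates 1, 2 and 3.

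Of 8 tested coactivators and CITED competitors, 1 was higher and 2 lower, with a median log2 fold change of -0.073. The lower genes were Pkm, which encodes pyruvate kinase and is also a target of HIF (log2 fold change -0.19, adjusted p = 5.9e-04, edgeR), and the coactivator Ncoa2 (log2 fold change -0.18, adjusted p = 0.0092, edgeR). The gene higher was Cdk8, a Mediator kinase (log2 fold change 0.22, adjusted p = 0.024, edgeR). The Cdk8 call was lost with upper-quartile scaling and without any one of Veh replicates 1 and 3 and GSK replicates 1 and 3, as well as with replicate number as a block.

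Among 14 other tested genes for hydroxylases of protein side chains or their subunits, 1 was higher, 9 were lower and 4 did not pass. Their median log2 fold change was -0.20, and like the EGLN enzymes these hydroxylases mostly use oxygen and 2-oxoglutarate. The lower gene with the smallest p was Plod2, a lysyl hydroxylase of collagen and itself a known HIF target, which fell from 101 ± 8.01 to 59.9 ± 3.98 CPM (log2 fold change -0.76, adjusted p = 9.4e-06, edgeR). The higher gene was Riox1, a ribosomal protein hydroxylase (log2 fold change 0.36, adjusted p = 0.0066, edgeR).

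Of 17 tested genes that feed HIF synthesis, such as the mTOR pathway, 4 were higher, 4 lower and 9 did not pass, with a median log2 fold change of -0.021. Irf4, a transcription factor induced through the antigen receptor, rose from 182 ± 10.9 to 267 ± 17.9 CPM (log2 fold change 0.55, adjusted p = 3.3e-05, edgeR). Nfkb1, an NF-κB subunit, fell from 426 ± 3.91 to 347 ± 3.83 CPM (log2 fold change -0.29, adjusted p = 8.6e-05, edgeR). The count lower was 2 without Veh replicate 1 and 2 without GSK replicate 1.

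Known HIF targets were chosen with their decrease in these samples already known, so their count is a description and not independent evidence of its direction. Of 42 tested, 34 were lower, 3 higher and 5 did not pass, with a median log2 fold change of -0.35. Vegfa, the angiogenic growth factor, fell from 45.9 ± 1.10 to 19.4 ± 1.81 CPM (log2 fold change -1.24, adjusted p = 4.1e-07, edgeR). Ddit4, an inhibitor of mTOR, fell from 256 ± 10.3 to 157 ± 2.04 CPM (log2 fold change -0.70, adjusted p = 4.3e-07, edgeR). Ero1a, an oxidase of the endoplasmic reticulum, fell from 300.5 ± 17.3 to 163 ± 13.6 CPM (log2 fold change -0.88, adjusted p = 2.9e-06, edgeR). None of the 8 genes is on that list. The genes higher were the carbonic anhydrase Car12 (log2 fold change 0.50, adjusted p = 7.3e-04, edgeR), the nitric oxide synthase Nos2 (log2 fold change 1.29, adjusted p = 0.024, edgeR) and the transferrin receptor Tfrc (log2 fold change 0.12, adjusted p = 0.041, edgeR). Without any one of Veh replicate 1, Veh replicate 2 and GSK replicate 1 the count higher was 1.

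**Figure D4:**
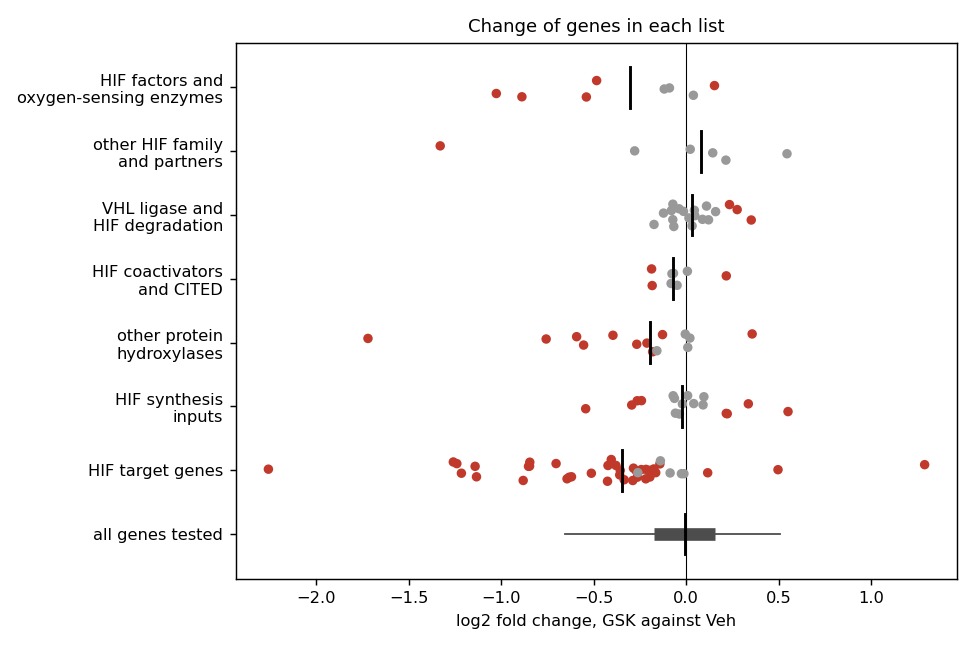
Log2 fold change, GSK against Veh (horizontal axis), of every tested gene of the 8 genes described and of each list, in red where the adjusted p was under 0.05 (edgeR) and in gray where it was not, with the list's median as a black line. For all 11698 genes tested the thick bar spans the quartiles and the thin line the 5th to 95th percentile, and the medians lay at -0.35 for HIF targets, -0.30 for the 8 genes and close to 0 for the synthesis inputs and the ligase list.

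Genes whose level moved most like Hif1a and Egln1 over the 6 samples were ranked by Pearson's r of log2 CPM among 8691 genes with a mean of at least 10 CPM. The samples fall into 2 groups and share their libraries across genes, so these values are a description with no test. For Egln1 the 5 closest genes were Mgarp (r = 0.999), Mindy2 (0.998), Map3k4 (0.997), Pdk1 (0.997) and Gys1 (0.997). Pdk1, a kinase that inhibits pyruvate dehydrogenase, and Gys1, the glycogen synthase of muscle and other tissues, are both known HIF targets. Mgarp, a mitochondrial protein, had the largest change of the 5 (log2 fold change -1.92, adjusted p = 1.3e-05, edgeR). Within the set itself, Egln1 had r of 0.955 with Egln3, 0.937 with Hif1an, 0.934 with Vhl, 0.910 with Arnt, -0.472 with Egln2 and -0.771 with Hif1a. For Hif1a the 5 closest genes were Dcbld2 (r = 0.989), Polr3a (0.987), Alkbh6 (0.985), Prrg4 (0.981) and Itm2c (0.981), with log2 fold changes between 0.15 and 0.38.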

How the data were processed

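Total RNA of cultured CD8+ T cells was made into stranded polyA libraries. Per the labels and the study's methods, the authors trimmed reads with Trimmomatic, aligned them to GRCm38 with HISAT2 2.1.0 and counted them per gene with HTSeq 0.11.2. The annotation release and strand setting are not given in the sources used here. The deposited values are whole-number counts per gene, not normalized.

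Groups were taken from the labels. Counts were tested with edgeR 4.0.16 (R 4.3.3; TMM scaling, filterByExpr, robust quasi-likelihood), and an adjusted p under 0.05 was a call. The standard error is the size of the log2 fold change divided by the square root of F. Alternatives were DESeq2 1.42.0, other scaling, filters, a replicate block and leaving out each sample. Paralog ratios used a prior count of 2. Exon lengths came from GENCODE M21. The script recovered known changes of 1.5-fold and 2-fold in simulated data with 200 changed genes. Every simulated gene had the same relative variation beyond sampling. Smaller changes, and genes that differ in this variation, were not simulated.

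The genes and lists were chosen with earlier results of these data known. Genes named beside the 8 are, by list, the smallest p in each direction (up to 3 for the ligase, coactivator and target lists), the 5 most like Hif1a and Egln1, and overlapping genes. The labels do not tie each sample to an animal or culture, and where these are shared the p-values measure only the spread between these samples.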

Additional observations from a re-analysis of the deposited data

How the results depend on the processing

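Of the 8 genes, Arnt, Egln1, Egln2, Egln3 and Vhl kept their direction and their side of the threshold under all 13 alternatives. Hif1a, Epas1 and Hif1an kept their direction. With 1 sample left out, the log2 fold change of Hif1a ranged from 0.13 to 0.18 (adjusted p = 0.064 without GSK replicate 1, edgeR) and that of Epas1 from -1.07 to -0.67 (adjusted p = 0.087 without Veh replicate 3 and 0.077 without GSK replicate 1, edgeR). Hif1an passed with upper-quartile scaling only (-0.15, adjusted p = 0.040, edgeR). The count of the 8 genes that were higher ranged from 0 to 1 with 1 sample left out, 0 being without GSK replicate 1, and that of genes that were lower was 3 without Veh replicate 3 or GSK replicate 1 and 5 with upper-quartile scaling. Over all genes, 1941 were higher and 1819 lower, against 1507 and 2254 with upper-quartile scaling and 1681 and 1582 with DESeq2, and with 1 sample left out those higher ranged from 1288 (without GSK replicate 1) to 2090. Deviations from the group means correlated at -0.0515, -0.0814 and 0.164 for samples with replicate number 1, 2 and 3. Veh replicate 1 with GSK replicate 2 gave 0.223, Veh replicate 2 with GSK replicate 1 gave 0.114, and the remaining pairs were negative. A pairing by mouse under another numbering was not tested, since the block followed the replicate number. With a replicate block, 1703 genes were higher and 1600 lower, and of the 8 genes 1 was higher and 4 lower, as without it. Taken by replicate number, the difference of Egln3 to Egln2 was -0.86 in pair 1 and -1.24 in pair 3, that of Egln3 to Egln1 was -0.31 in pair 1, and that of Epas1 to Hif1a was -1.45, -0.64 and -1.03 in pairs 1, 2 and 3, against -1.06, -0.48 and -1.04 over the groups. Of 156 list counts under the alternatives, 138 moved by at most 1.5 times and 18 by more, among them the count that rests on Arntl2, which had no adjusted p with DESeq2 and was not tested with a filter of 1 CPM. The cause of these differences was not tested. Counting depth limits Epas1 most.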
